A study of Homo sapiens with 3 samples.

Results

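GAS5, SNHG1, RACK1, NCL, NOP56 and NOP58 are human host genes whose introns carry small nucleolar RNAs (snoRNAs). They were chosen by name, with earlier results of these data known. Their members are the peaks inside the 6 gene intervals on the strand of each gene. These came to 56, 62 and 71 of the 15661, 15486 and 17791 distinct peaks in the lists of replicates 1, 2 and 3. The study mapped RNA bound by HNRNPA0, which belongs to the A/B group of heterogeneous nuclear ribonucleoproteins, as part of work on the proteins that bind RNA G-quadruplexes. Its 3 replicates form 1 group: wild-type HEK293T, an established human embryonic kidney line, given 750 ng of vector encoding HNRNPA0 with an HA tag. RNA was crosslinked to protein at 254 nm and 0.3 J/cm2, recovered with anti-HA beads, trimmed with RNase I at 0.02 U/µL for about 3 min and sequenced (easyCLIP). The protein came from a vector in every replicate, and no control library was used here, so the values do not separate RNA bound to HNRNPA0 from RNA recovered without it. Nothing in the labels says whether the replicates were separate cultures, so the spread between them may be technical.

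Small nucleolar RNAs guide chemical changes of ribosomal and other RNAs in the nucleolus. Box C/D snoRNAs guide ribose methylation and box H/ACA snoRNAs guide pseudouridylation. In vertebrates most are cut from the introns of a host transcript after splicing, while proteins of the mature particle protect their ends. GAS5 and SNHG1 are long noncoding RNAs. RACK1 encodes a scaffold protein on the small ribosomal subunit, NCL encodes nucleolin, an abundant nucleolar RNA-binding protein, and NOP56 and NOP58 encode paired core proteins of the box C/D particle itself.

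Each deposited peak carried a whole number, read here as the reads in the peak and called its read number. The lists held no peak below a read number of 3, and their median was 4. Summed over the nuclear genome, read numbers came to 100038, 99141 and 114203 in replicates 1, 2 and 3. The 3 lists shared between 16 and 18 identical intervals pair by pair, so the lists were not copies of one another. Overlapping peaks of different replicates were merged into regions, and a region with a peak from all 3 replicates is called a shared region below. All 6 hosts held at least 1 shared region, against 21.8% of the 6662 nuclear genes with any peak. Of 68 regions in the hosts, 30 were shared, which is 44.1%, against 6.23% of all regions of the series. Because the hosts were picked with earlier results of these data known, these comparisons carry no test. No peak lay on the opposite strand of any host. Every peak was listed under a gene ID, so this absence is no measure of strand specificity. RNA levels were not measured here, so a count of regions does not separate binding from the abundance of a transcript.

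The hosts differed in where their peaks lay. In GAS5, SNHG1 and NOP56 every shared region lay in a snoRNA gene. In RACK1, NCL and NOP58 most lay elsewhere in the gene. A peak or region was assigned to a snoRNA when at least 50% of its length lay in the annotated snoRNA interval. No exon annotation was used here, so exons and introns outside the snoRNA genes were not told apart. GAS5 held 4 shared regions, all in snoRNAs. SNHG1 also held 4 and NOP56 held 2, again all in snoRNAs. RACK1 held 9, of which 1 lay in a snoRNA, NCL held 8, of which 2 did, and NOP58 held 3, of which 1 did.

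**Figure D1:**
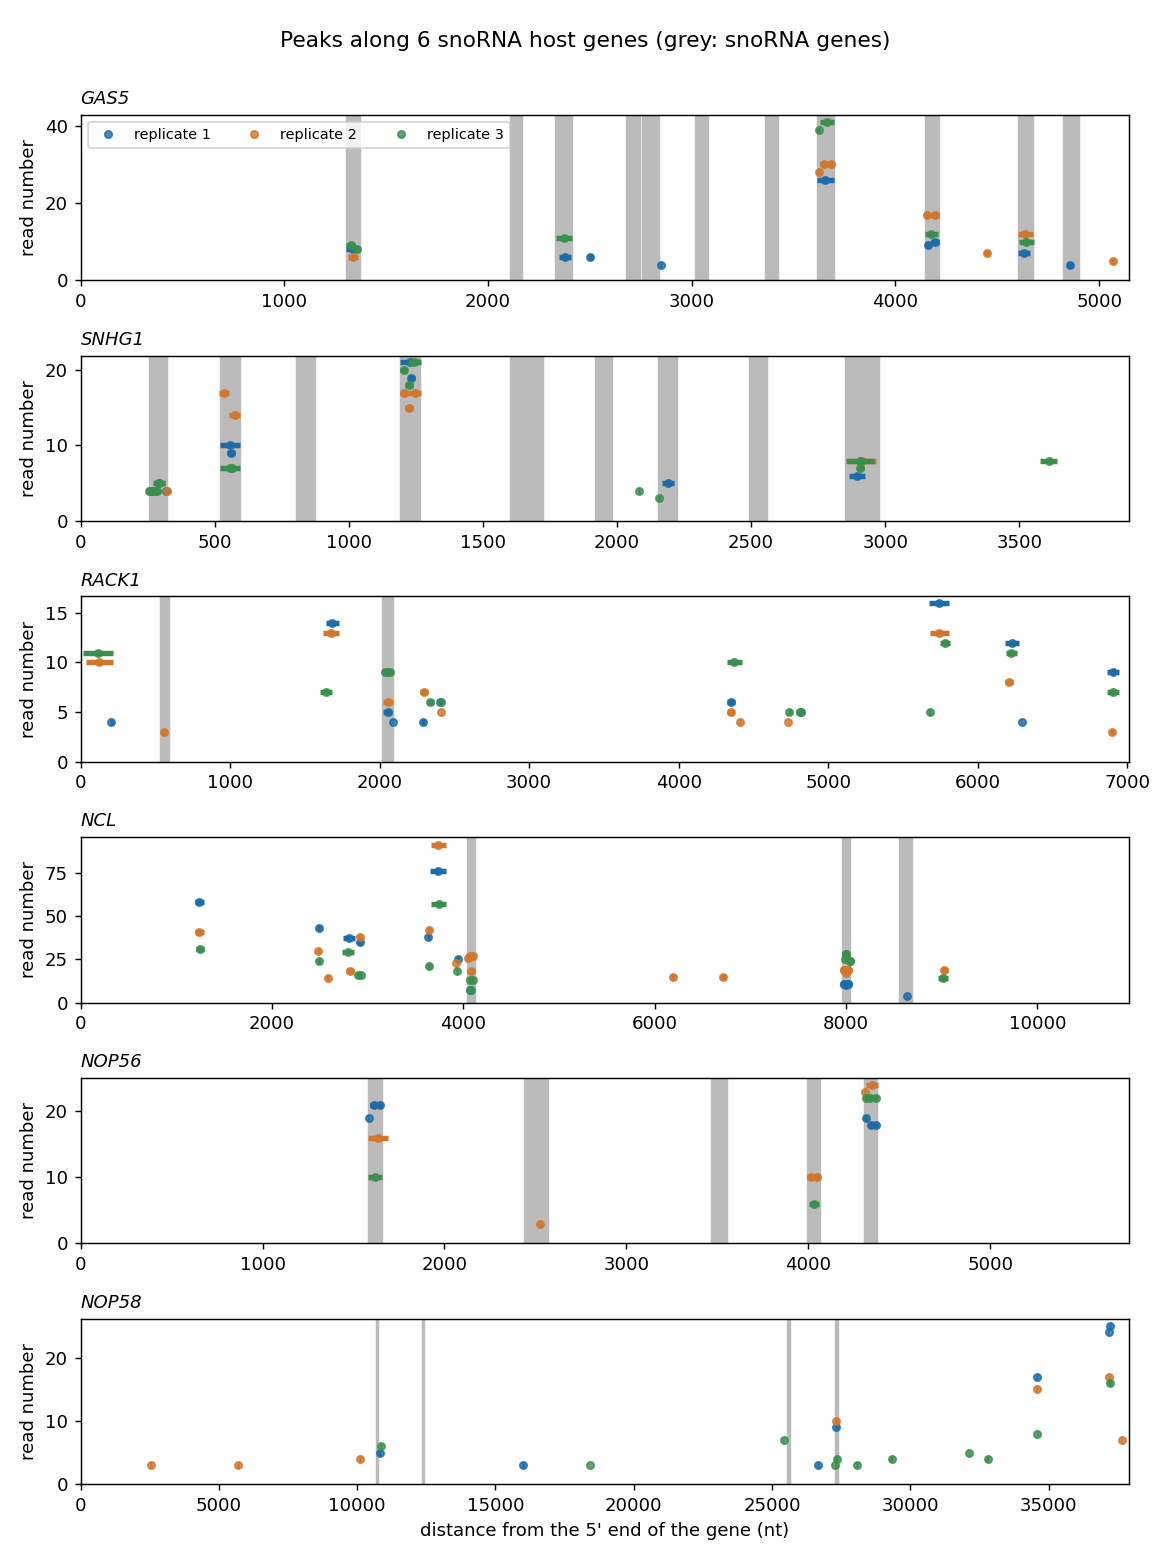
Each panel shows the peaks of 1 host gene by distance from its 5' end (x axis, nt) and read number (y axis), with 1 colour per replicate, a bar over the width of a peak and a dot at its centre. Grey bands are annotated snoRNA genes. Peaks of GAS5, SNHG1 and NOP56 stand mainly in the bands, while the highest peaks of NCL, RACK1 and NOP58 stand outside them.

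The share of read numbers told the hosts apart in the same way. In NOP56 the snoRNA genes held 100% of the summed read number in each replicate, with 7.57% of the gene length. In SNHG1 they held 100%, 100% and 90.9% in replicates 1, 2 and 3, with 19.0% of the length. In GAS5 they held 87.5%, 92.1% and 100%, with 15.6% of the length. These 3 hosts did not overlap with the other 3 in any replicate. The snoRNA share in NCL was 17.2%, 35.6% and 41.8%, in RACK1 5.62%, 11.1% and 24.1%, and in NOP58 10.5%, 16.9% and 11.1%. The range of RACK1 overlapped with those of NCL and NOP58, while every replicate of NCL lay above every replicate of NOP58, at 17.2% against 16.9% where they came closest. Adjoining peaks, and lines listed under both a host ID and a nested snoRNA ID, can hold the same reads. When touching peaks were joined and only the highest of each run was kept, the NCL share was 12.8% ± 5.21, against 31.5% ± 12.7 with all peaks (SD, n = 3). The NOP58 share was then 12.7% ± 5.37 (SD, n = 3), and the ranges of NCL and NOP58 overlapped.

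**Figure D2:**
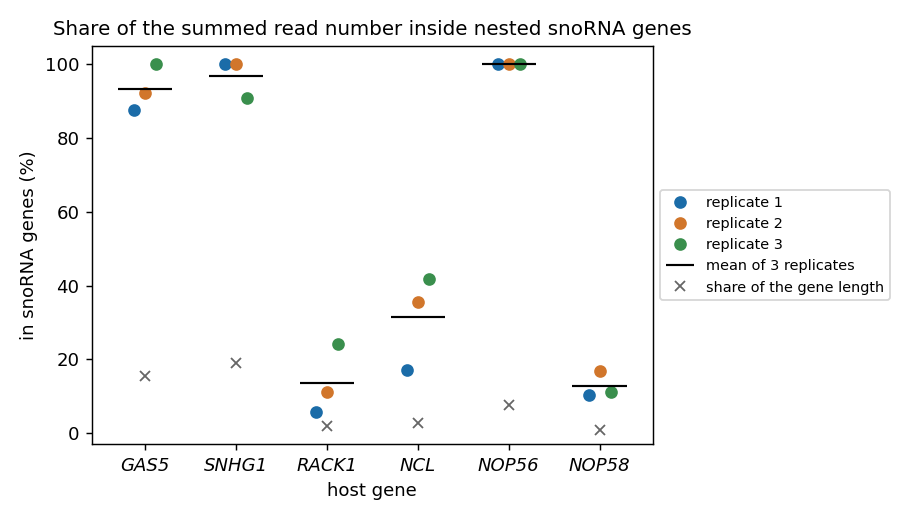
The share of the summed read number that lay inside nested snoRNA genes (y axis, %) is shown for each host (x axis), with dots for the 3 replicates and a line for their mean. Crosses give the share of the gene length that the snoRNA genes take up. GAS5, SNHG1 and NOP56 lie at 87.5% or above in each replicate and the other 3 hosts at 41.8% or below.

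Per length of annotated gene, the snoRNA genes held more read number than the rest of the same host in all 3 replicates of all 6 hosts. In NCL the density was 477 ± 226 per kb in snoRNA genes and 27.6 ± 5.80 per kb outside them (SD, n = 3). It was 217 ± 42.6 per kb in NOP56 snoRNA genes, with no peak outside. GAS5 had 141 ± 47.3 per kb in snoRNA genes and 1.69 ± 1.48 outside, and SNHG1 had 132 ± 27.7 and 1.26 ± 2.19 in the same order (SD, n = 3). RACK1 had 101 ± 86.8 per kb in snoRNA genes and 11.7 ± 1.05 outside, the smallest ratio of the 5 hosts that have one, at 8.66. NOP58 had 24.1 ± 4.25 per kb in snoRNA genes and 1.62 ± 0.388 outside (SD, n = 3). For each host the exact two-sided sign-flip permutation test over the 3 replicates gave p = 0.25, the smallest that n = 3 allows, and the Benjamini-Hochberg value over the 6 hosts was also 0.25. Joining touching peaks lowered the snoRNA density by over 1.5 times in all hosts but NOP58. NCL then had 124 ± 43.4 per kb in snoRNA genes and 24.0 ± 5.59 outside, NOP56 had 100.2 ± 18.7 and 0, and GAS5 had 87.0 ± 14.6 and 1.69 ± 1.48 (SD, n = 3). SNHG1 had 70.4 ± 4.33 per kb in snoRNA genes and 1.26 ± 2.19 outside, and RACK1 had 56.8 ± 17.1 and 11.7 ± 1.05 (SD, n = 3). The direction stayed the same in all 3 replicates of each host. Averaged over the hosts, the difference was 175 per kb with all peaks and 70.0 per kb with touching peaks joined. Without lines under nested snoRNA gene IDs the difference was 221 per kb in NCL, against 449.5 with them, and 83.5 in SNHG1, against 131 with them. In RACK1 it was 89.5 per kb, and 40.5 without replicate 3. In NOP58, restricting each list to the 50% with the lowest p-values gave p = 0.50 in the same exact test, so there the snoRNA genes were not higher in all 3 replicates. The gene interval includes introns, which spliced host RNA lacks, so the density outside snoRNA genes is an average over both.

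Of 34 snoRNA genes nested in the hosts, 14 held a shared region, all of the box C/D class. Outside these hosts, 9.35% of 535 named snoRNA genes did. A further 7 nested genes had a peak in 1 or 2 replicates and 13 had none. Among box C/D genes the count was 14 of 30, and among box H/ACA genes 0 of 3. In the rest of the genome the share was 7.95% for 327 box C/D genes and 9.50% for 179 box H/ACA genes, so the split by class seen in the hosts rests on 3 H/ACA genes. The 327 and the 535 genes include 41 box C/D genes in MEG8 and 83 in SNHG14. Neither of these hosts had a listed peak, which lowers the shares of 7.95% and 9.35%. Outside the hosts, peaks of either strand were counted.

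GAS5, on chromosome 1 from 173863901 to 173869045 (hg38, minus strand), carries 11 annotated snoRNA genes, and SNORD79 held its highest peak. SNORD79, which guides methylation of the large-subunit ribosomal RNA, lies on chromosome 1 from 173865350 to 173865430. Its read numbers were 26, 30 and 41 in replicates 1, 2 and 3. SNORD80, a guide for the same ribosomal RNA, followed with 10, 17 and 12. Every replicate of SNORD79 lay above every replicate of SNORD80. SNORD47 had 7, 12 and 10, and SNORD74 had 8, 6 and 9, and these 2 overlapped. SNORD76 had 6 in replicate 1 and 11 in replicate 3 but no peak in replicate 2, and SNORD81 had 4 in replicate 1 only. SNORD44, SNORD75, SNORD77, SNORD78 and SNORA103 had no listed peak, although they share the host transcript with SNORD79. Outside the snoRNA genes GAS5 had peaks of 4 and 6 in replicate 1, peaks of 5 and 7 in replicate 2 and none in replicate 3.

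SNHG1, on chromosome 11 from 62851978 to 62855885 (minus strand), carries 9 annotated snoRNA genes, 1 of them without a given name. SNORD28, a guide for the small-subunit ribosomal RNA at 62854621 to 62854695, had the highest peaks, with read numbers of 21, 17 and 21 in replicates 1, 2 and 3. SNORD26, a guide for the large-subunit RNA, had 10, 17 and 7, so the 2 touched at 17 in replicate 2. SNORD22, which in Xenopus is needed for the maturation of small-subunit ribosomal RNA, had 6, 8 and 8. SNORD25, another small-subunit guide, had 5, 4 and 5, close to the lowest value in the lists. SNORD30 had peaks in replicates 1 and 3 alone, with 5 and 3. SNORD27, SNORD29, SNORD31 and the unnamed gene had none. The only SNHG1 peaks outside snoRNA genes were 2 in replicate 3, with read numbers of 8 and 4. Lines under nested snoRNA gene IDs made up 14 of the 33 SNHG1 peaks, and 9 of them overlapped a line of the host ID in the same replicate.

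NOP56 lies on chromosome 20 from 2652632 to 2658393 (plus strand) and carries 5 snoRNA genes. SNORD57, a small-subunit guide at 2656939 to 2657010, had read numbers of 19, 24 and 22 in replicates 1, 2 and 3. SNORD110, also a small-subunit guide, had 21, 16 and 10, which overlapped with SNORD57. SNORD56 had 10 in replicate 2 and 6 in replicate 3 and no peak in replicate 1. SNORA51, of the H/ACA class, had a single peak of 3 in replicate 2, and SNORD86 had none. Outside its snoRNA genes NOP56 held no listed peak in any replicate. At a lowest listed read number of 3, this does not show that its messenger RNA was unbound. When an overlap of 50% of both peaks was required, 1 of the 2 shared regions of NOP56 was left.

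**Figure D3:**
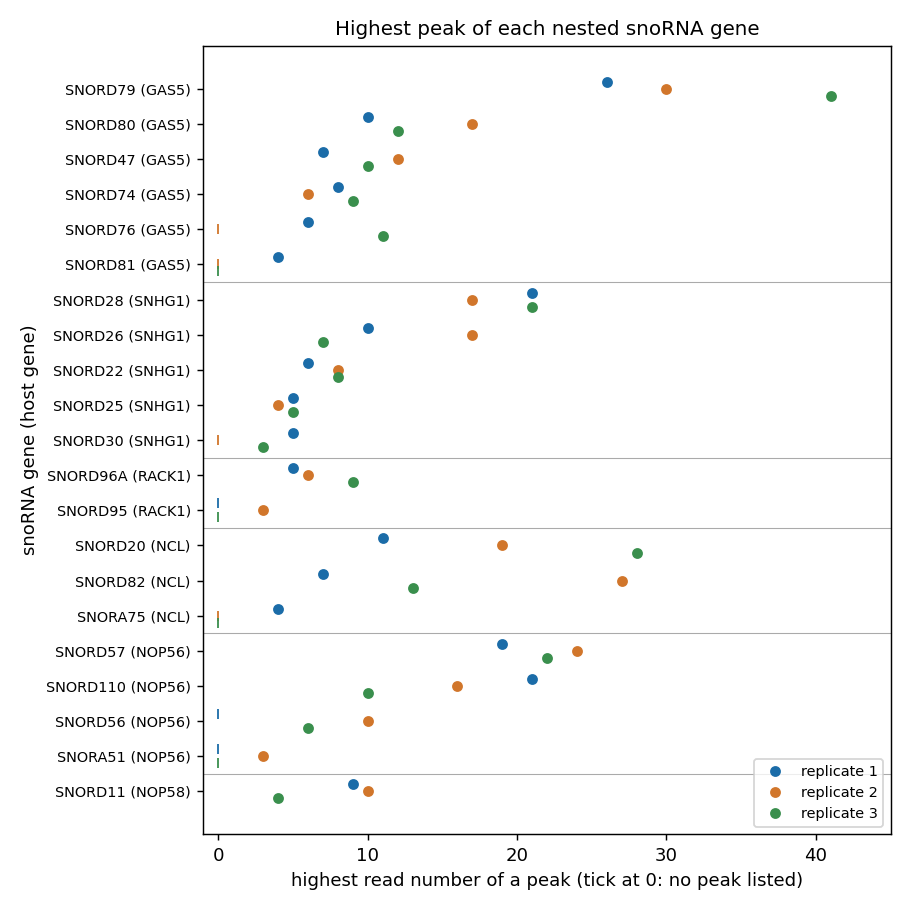
The highest read number of a peak (x axis) is shown for each of the 21 nested snoRNA genes with a peak in any replicate (y axis, host in brackets), with 1 dot per replicate and a tick at 0 where no peak was listed. SNORD79 reaches 41, and 7 genes lack a peak in 1 or 2 replicates.

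Many peaks assigned to a snoRNA ended near its annotated ends. Only peaks with at least 50% of their length in the snoRNA were measured, so peaks lying mostly past an end were left out. One such peak lay over the 3' end of SNORD96A in replicate 1. Lines under nested snoRNA gene IDs were included. Both choices limit what the offsets show. For the 14 snoRNA genes with a shared region, the outermost peak base was set against both annotated ends in each replicate. Of 84 such ends, 56 lay within 3 nt of the annotation, which is 66.7%, and the median offset was 0 nt. At the 5' end 30 of 42 did so and at the 3' end 26 of 42. Peaks stopped short of the annotated end by more than 3 nt in 21 cases and ran past it by more than 3 nt in 7. In SNORD79, SNORD20, SNORD28 and SNORD26 all ends in all replicates lay within 3 nt. SNORD22 was the least fully covered at its 3' end, where replicate 1 stopped 50 nt short. The longest overrun was 37 nt past the 3' end of SNORD110 in replicate 2, where the other 2 replicates ran 2 nt past it. SNORD11 of NOP58 ran past both ends in replicates 1 and 2, by 4 to 13 nt. All GAS5 peaks, those of SNORD79 included, were listed under the host gene ID.

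**Figure D4:**
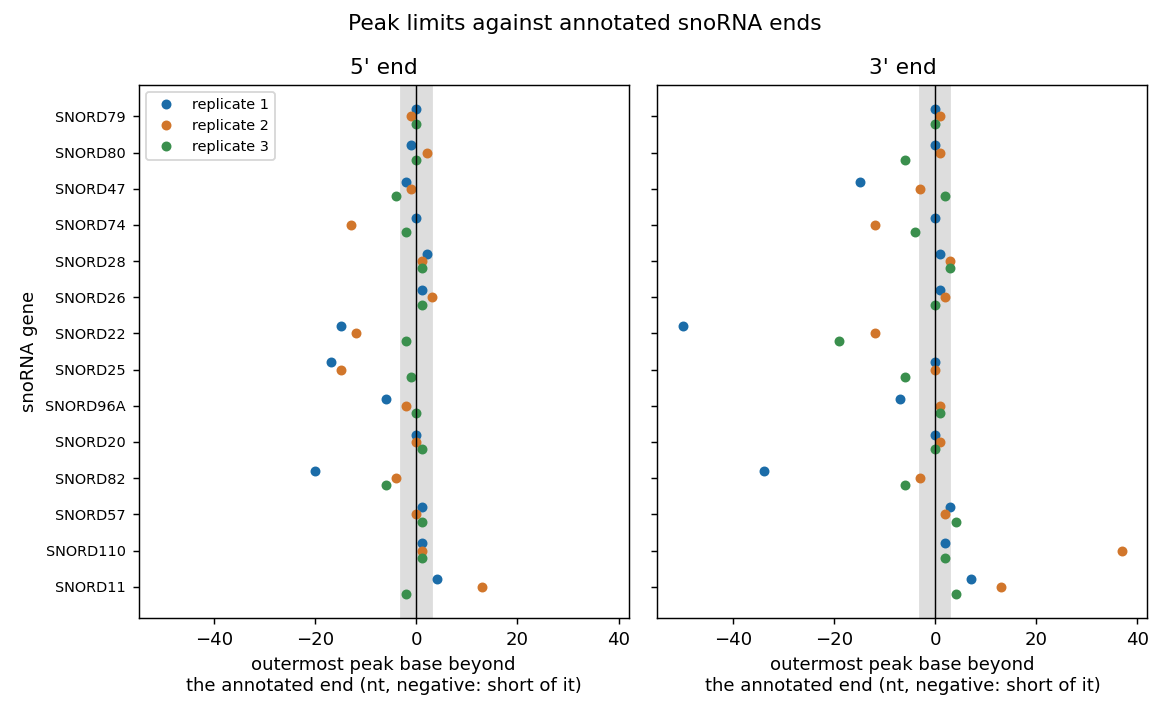
The distance of the outermost peak base beyond the annotated end (x axis, nt, negative where peaks stop short) is shown for the 5' end (left) and the 3' end (right) of the 14 snoRNA genes with a shared region, with 1 dot per replicate. The grey band marks 3 nt on either side, and it holds 56 of the 84 ends.

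NCL, on chromosome 2 from 231453531 to 231464484 (minus strand), held the highest peaks of the 6 hosts, and these lay outside its snoRNA genes. Its highest region, from 231460669 to 231460867, had read numbers of 76, 91 and 57 in replicates 1, 2 and 3. The region nearest the 5' end, from 231463199 to 231463294, followed with 58, 41 and 31, and overlapped in range with the highest region at 58 against 57. The third, from 231461971 to 231462018, had 43, 30 and 24. All 6 shared regions outside snoRNA genes lay between 1191 and 3959 nt from the 5' end, in a stretch from 10.9% to 36.1% of the gene length. The remaining 3 had mean heights of 22.0 to 29.7. Toward the 3' end, the region of SNORD20 lay between 7961 and 8042 nt and no other shared region was found. A region between 8964 and 9068 nt had 19 and 14 in replicates 2 and 3 and no peak in replicate 1. SNORD20, a small-subunit guide at 231456444 to 231456523, had highest read numbers of 11, 19 and 28 in replicates 1, 2 and 3. SNORD82, also a small-subunit guide, follows the last of the 6 regions, with its region between 4047 and 4114 nt, and had 7, 27 and 13. SNORD20 was highest in replicate 3 and SNORD82 in replicate 2. In replicate 1 the peak in SNORD82 was listed under the snoRNA gene ID alone. Its value of 7 is therefore unlike the 27 and 13, which came from lines of the host ID. Lines under the SNORD82 gene ID had 7, 18 and 7 in replicates 1, 2 and 3, a smaller spread. Without lines of that kind the region was no longer shared. SNORA75, the H/ACA snoRNA of NCL, had 1 peak of 4 in replicate 1. The lowest NCL peaks under the host ID had 11, 14 and 13 in replicates 1, 2 and 3. Lower NCL peaks were listed only under nested snoRNA gene IDs, so a stretch of NCL without a peak may still hold weaker signal.

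RACK1, on chromosome 5 from 181236897 to 181243906 (minus strand), held 8 shared regions outside snoRNA genes, spread from its 5' end to its 3' end. The highest, from 181238092 to 181238240, had read numbers of 16, 13 and 12 in replicates 1, 2 and 3. The second, from 181242177 to 181242308, had 14, 13 and 7, and the third, from 181237634 to 181237724, had 12, 8 and 11. The 3 overlapped in range. The last region ended 67 nt before the 3' end of the gene. SNORD96A had 5, 6 and 9, and SNORD95 had a single peak of 3 in replicate 2. With an overlap of 50% of both peaks required, 4 of the 9 shared regions of RACK1 were left.

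The first shared region of RACK1 reached into the first bases of the gene, where its sequence could be read from the RefSeq promoter table (GRCh38.p14). It ran from 181243692 to 181243889, with read numbers of 4, 10 and 11 in replicates 1, 2 and 3. The peak of replicate 3 began at base 18 of the gene and that of replicate 2 at base 33, while that of replicate 1 lay farther in. Bases 18 to 47, at chr5:181243860-181243889 on the minus strand, are shown because the study is about G-quadruplexes, and capitals mark runs of 2 or more G.
RACK1 bases 18 to 47: gcGGcGGcaGGagaGGttgtGGtgctagtt
The stretch held 5 pairs of G. It matched a search for 4 pairs GG with gaps of 1 to 7 bases, a loose pattern on which G-quadruplexes of paired guanines are modelled. Only the peak of replicate 3 covered all pairs of a match, because those of replicates 1 and 2 began farther in. The first 50 bases of 23.7% of 35116 gene starts matched on the RNA strand, and 14.7% matched on the opposite strand. Among the 5 hosts with a promoter entry NOP56 matched as well, and it had no peak there. GAS5, SNHG1 and NCL did not match. A match is a description of letters and not of a folded structure.

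NOP58, on chromosome 2 from 202265763 to 202303661 (plus strand, taken from its peaks), held 2 shared regions outside snoRNA genes, the first of which begins at 91.2% of the gene length. The region from 202302918 to 202303044, which ends 617 nt before the 3' end, had read numbers of 25, 17 and 16 in replicates 1, 2 and 3. The other, from 202300316 to 202300368, had 17, 15 and 8. SNORD11, a small-subunit guide, had 9, 10 and 4, below the region nearest the 3' end in each replicate. SNORD70, SNORD70B and SNORD11B had no listed peak. A further 12 regions of NOP58 had a peak from 1 replicate alone. NOP56 and NOP58 thus differed, although their proteins are paired in one particle: the shared regions of NOP56 were all in snoRNA genes, and the highest of NOP58 was not.

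Among the genes of snoRNA particles, NOP56, NOP58, DKC1 and NOLC1 held shared regions. Of 4 box C/D core protein genes, NOP56 and NOP58 did, while FBL, the gene of the methyltransferase fibrillarin, had peaks of at most 4 and SNU13 had none. Of 4 box H/ACA core protein genes, DKC1, the gene of the pseudouridine synthase dyskerin, held 1 shared region, with highest read numbers of 14, 10 and 10. Of 9 genes for assembly factors and chaperones of the particles, only NOLC1, which encodes a nucleolar phosphoprotein that binds them, held one, with highest read numbers of 27, 16 and 23. RUVBL2, ZNHIT3 and PIH1D1 had no peak, and neither did NOP10 of the H/ACA core. Of all genes with any peak, 21.8% held a shared region, while the lists of 4, 4 and 9 genes include 1, 1 and 3 with no peak. The counts of 2 of 4, 1 of 4 and 1 of 9 are therefore read as a description only.

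By annotation, the intervals of 305 other genes contain a named snoRNA gene, and 30.2% of them held a shared region. Of the 305, 214 had any peak. Containment did not require the same strand, so both PABPC4 and PABPC4-AS1 were counted. Some genes called hosts here may therefore not carry the snoRNA in their own transcript. In those 92 hosts, 48 of 198 shared regions lay in snoRNA genes, which is 24.2%, against 14 of 30, or 46.7%, in the 6 hosts described here. The 6 hosts were picked with earlier results of these data known, so this difference carries no test. Among the 92, regions inside overlapping host genes, such as EIF4A1 and SENP3-EIF4A1 with 3 each, were counted for each gene. The other hosts with most shared regions were EIF4G2 with 13, RPL4 with 10 and CCAR1, HNRNPU, HSPD1 and RPS3 with 6 each. None of those regions lay in a snoRNA gene, and in 24 of the 92 hosts all did. Among all named snoRNA genes SNORD79 ranked 6th by mean highest read number. Ahead of it stood SNORD3A, with 146 ± 6.51, SNORD118, with 107 ± 4.51, SNORD65, with 59.0 ± 12.8, and SNORD45A, with 37.7 ± 6.43, against 32.3 ± 7.77 for SNORD79 (SD, n = 3). SCARNA7, with 41, 43 and 54, also stood ahead of it.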

How the data were processed

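Each replicate had its own list of peaks, as deposited, with no header line. The submitters' processing notes name hg38 as the build and bedtools and deepTools as tools. How reads were aligned, how peaks were called and whether duplicates were removed is not given in the sources used here. The deposited p-value of each peak was under 0.05, with no adjustment stated. The other deposited number, the last part of each peak name, is not named in the files and was read as reads in the peak. Lines of 1 interval and strand were counted once per replicate, which removed 577, 574 and 711 lines in replicates 1, 2 and 3. Peaks overlapping by 1 bp or more on a strand were merged across replicates into regions with Python 3.11.15 and pandas 2.3.3, and merging was checked on made-up peaks. Genes and snoRNA genes came from a RefSeq table of GRCh38.p14, with strands from the promoter table for 27305 genes. For a further 1503, NOP58 among them, the strand with more peaks was taken. A peak or region belonged to a gene when its centre lay in it.

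Named items were the 6 hosts, every nested snoRNA gene, the 3 highest shared regions of a host, the genes of snoRNA particles, the 5 other hosts with most shared regions (with ties) and the 5 highest other snoRNAs. The region at the 5' end of RACK1 was chosen after its values were seen, for its sequence. Members and lists were chosen with earlier results of these data known. Alternatives covered the p-value, the overlap, the replicates, the assignment to snoRNAs and the counting of touching peaks. Depth is known only as read numbers in peaks, so no counting interval is given.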

Additional observations from a re-analysis of the deposited data

How the results depend on the processing

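The 30 shared regions of the 6 hosts became 25 in the stricter 50% of each list, 23 with an overlap of 50% of both peaks, 37 with 2 or more replicates sufficing and 29 without lines under nested snoRNA gene IDs, a setting chosen after seeing the data. With each replicate left out they came to 31 to 33. The mean snoRNA share of the 6 hosts was 58.0%, and it moved to 53.1% when touching peaks were joined into runs. Their summed read number was 0.880% of the nuclear total. It moved to 0.595% with runs counted once, to 0.655% when the total was also taken over runs, which was chosen after seeing the data, and to 0.365% of the whole sum with mitochondrial peaks included. The mean difference in read number per kb between snoRNA genes and the rest stayed above 0 in each host under every alternative run, and its mean over hosts was 70.0 to 204 per kb. In the stricter 50% of each list NOP58 was no longer higher in all 3 replicates. No alternative could reach a p below 0.25. Under the stricter overlap RACK1 held 4 shared regions in place of 9, NOP56 1 in place of 2 and NOP58 2 in place of 3. In the stricter 50% of each list RACK1 held 7, NCL 7 in place of 8, SNHG1 3 in place of 4 and NOP58 2. The NCL share fell to 12.8% with runs counted once. The cause of these moves was not tested. No paired comparison of groups was possible because the replicates form 1 group, which leaves no other group to pair them with. The sign-flip test pairs the snoRNA genes with the rest of the host within each replicate. Peaks below a read number of 3 are not listed, which limits what an empty snoRNA gene shows. The lowest listed value also differed by host. Under the host ID it was 11, 14 and 13 in NCL in replicates 1, 2 and 3, against 4, 3 and 5 in RACK1. Lower NCL peaks came only under nested snoRNA gene IDs, so low peaks could add to the snoRNA side alone. Shares and densities of different hosts therefore rest on unlike lowest values.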
